A study of Mus musculus with 26 samples.

Results

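The genes described here are the homeobox and paired-box (Pax) regulators outside the Hox clusters. They were chosen by name alone, as every gene symbol of the Pax, Lhx, sine oculis (Six4, Six6 and relatives), Dlx, Irx, Msx, Pitx, Otx, Gbx, Emx, Barx, Alx, Meis, Pbx, En and Nkx families on the arrays, and no measured value entered the choice. The rule found 65 of 16978 genes with promoter probes and 68 of 27962 named genes on the expression array. A transcription start could be placed for 63 of the 65, Gbx1 and Otx2 being the exceptions, and 48 of the 68 had a probe bright enough to be tested for RNA. The largest families on the expression array were Nkx with 11 members, Pax with 9, Lhx with 8, and Irx and sine oculis with 6 each.

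Homeobox and Pax proteins bind DNA and set regional and cell-type identity in the embryo, and most are silent until the tissue that needs them forms. In embryonic stem (ES) cells such genes are well-known Polycomb targets. Polycomb complexes trimethylate lysine 27 of histone H3 (H3K27me3), a mark of repressed genes, while trimethylated lysine 4 (H3K4me3) marks active and poised promoters, and a promoter with both marks is called bivalent.

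The study set induced pluripotent stem (iPS) cells beside ES cells and mouse embryonic fibroblasts (MEFs). Each mark was measured by chromatin immunoprecipitation on promoter arrays in the ES lines E14 and V6.5, in MEF1 (labelled male) and MEF2 (labelled female), and in 1 iPS line. The promoters were divided over a pair of array designs, both of which were used for every line and mark, and each line counts as 1 replicate. For RNA there were 6 arrays: a pair for the iPS cells, a pair for female MEFs and a pair for V6.5 ES cells grown on feeders. The labels used here name neither the strain and passage of the MEFs nor the factors, the clone and the parent cell of the iPS line. Nothing in them says that a duplicate array came from a separate culture, so the p-values measure only the spread between these arrays or lines. All cultures were measured in bulk, in which fewer cells of a type and less RNA or mark per cell cannot be told apart.

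A few properties of the arrays bear on all values below. The spread of log2 ratios was narrow on the E14 H3K27me3 arrays, with a median absolute deviation of 0.29 where the remaining arrays of that mark had 0.42 to 0.71. On the H3K27me3 arrays of the MEF lines, the protocol text and the label field name opposite dyes for the immunoprecipitate. The label field was followed, and over promoters those lines correlated with the ES and iPS lines at 0.617 to 0.684. For RNA, which arrays are ES and which are MEF differs between the scanner files and the value table. The value table was followed: in its MEF columns all 9 fibroblast markers were called higher and all 6 measured ES markers lower than in its ES columns. With the files as filed, the RNA differences between MEFs and ES cells named below change sign. The duplicate MEF array stood apart, with 86.6% of probes well above background against 46.0% to 58.4% on the other arrays with flags, and the MEF arrays correlated at 0.775 against 0.978 for the ES and 0.992 for the iPS pair. Summed fibroblast markers were 1059 and 539 on the MEF arrays, 63.3 and 80.4 on the feeder-dependent ES arrays and 21.0 and 18.5 on the iPS arrays, as multiples of each array's 75th percentile. Summed macrophage and blood markers were 101 and 57.6 in MEFs and between 2.60 and 3.66 on the ES and iPS arrays. Of the 5 markers of that list tested, 3 were called higher and 1 lower in MEFs than in ES cells, and 1 was not called.

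H3K27me3, the Polycomb mark, lay on the flanks of most of these genes in all 5 lines, with a dip at the start. By distance from the start, the plot shows H3K27me3 at the members far above that of the other promoters on both sides of the start, while just inside the gene, at 0.75 kb, the members' mean H3K4me3 was 0.66 to 1.07 over the lines against 1.19 to 1.55 elsewhere. At -5.25 kb the members' mean H3K27me3 was 1.13 in E14, 1.85 in V6.5, 1.62 in MEF1, 2.01 in MEF2 and 1.68 in iPS cells, and the other promoters lay between 0.08 and 0.17. At 1.25 kb inside the gene the members' means were 1.48, 2.40, 1.57, 2.04 and 2.05 in the same order, with the other promoters between -0.02 and 0.30. Just past the start, at 0.25 kb, the members dipped to 0.34, 0.87, 0.64, 0.96 and 0.63.

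**Figure D1:**
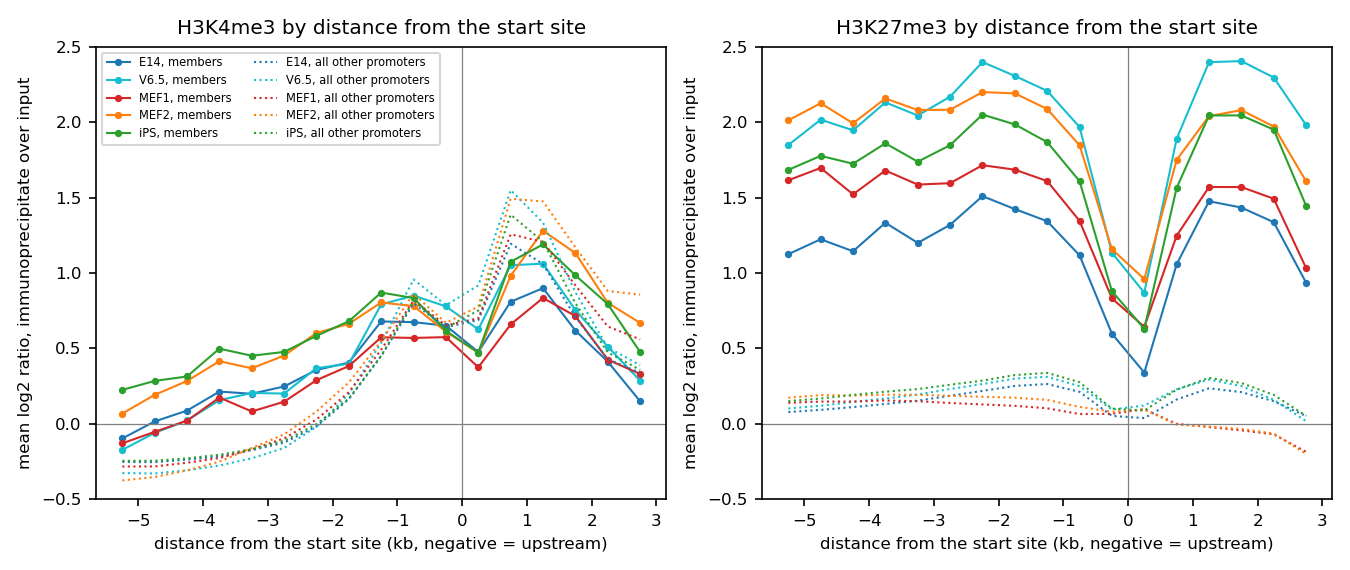
Mean log2 ratio of immunoprecipitate over input (vertical axis) in steps of distance from the transcription start in kb (horizontal axis, negative upstream) for H3K4me3 (left) and H3K27me3 (right), with solid lines for the members, dotted lines for all other promoters and a colour for each of the 5 lines. H3K27me3 of the members stays high from -5.25 kb to 2.75 kb except for a dip at the start, where it falls to 0.34 in E14 and 0.96 in MEF2, while the other promoters stay between -0.20 and 0.34.

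Upstream of the dip the members stood clearly apart from the other promoters, as they did inside the gene. Over the probes more than 2 kb upstream, which 60 members have, the mean H3K27me3 log2 ratio reached 1 or more, the level called marked here, at 43 members in E14, 51 in V6.5, 50 in MEF1, 54 in MEF2 and 52 in iPS cells. The share among 12092 other promoters was 3.48%, 10.4%, 11.6%, 16.7% and 9.97%. H3K4me3 reached that level upstream at 2 to 5 members in any line, 3.33% to 8.33% of members against 3.54% to 5.95% of the other promoters. Among these members was Pitx3 in all 5 lines (1.10, 1.31, 1.32, 1.59 and 1.12). Pitx3, a regulator of dopamine neurons and the lens, shares its upstream stretch with a divergent gene, as do Nkx1-2, Six3 and Six4.

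The upstream mark was shared by ES cells and fibroblasts. Of the 43 members with upstream H3K27me3 in both ES lines, 42 had it in both MEF lines and all 43 in the iPS line. Among the other promoters 277 of 417 (66.4%) had it in both MEF lines and 105 (25.2%) in neither. In the iPS line 408 of those 417 had it, so its presence there was general. The member without it in both MEF lines was Pbx3, which encodes a partner protein of other homeodomain factors, with upstream log2 ratios of 1.22 and 1.70 in the ES lines, 0.33 and 0.62 in the MEF lines and 1.25 in iPS cells. Nkx2-6, a regulator of pharyngeal and heart tissue, had the upstream mark in both MEF lines and in no pluripotent line. Its upstream values, over 7 probes, were 0.25 and 0.38 in ES, 1.13 and 1.76 in MEF and 0.64 in iPS cells. Within 1000 bp of the start, however, Nkx2-6 was marked with H3K27me3 in every line. The values there were 1.24 and 1.87 in ES, 2.26 and 3.05 in MEF and 2.16 in iPS cells. These genes were picked out after their values were seen.

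Measured as the share of a gene's tiled probes at or above a log2 ratio of 1, the median member had 54.5% of probes marked with H3K27me3 in E14, 76.9% in V6.5, 70.7% in MEF1, 77.5% in MEF2 and 69.8% in iPS cells, and the median of the other promoters was 0% to 2.5%. The H3K4me3 medians were 12.8% to 31.7% at members and 24% to 31.8% elsewhere. Several Pbx genes and Six4 had far fewer probes marked with H3K27me3, Pbx3 only in the MEF lines. Pbx2 had at most 3.57% of its probes marked with H3K27me3 in any line. Pbx3 had 47.1% and 64.7% in the ES lines, 0% and 2.94% in the MEF lines and 58.8% in iPS cells. Six4, a factor of muscle and sense-organ precursors, had 0% in ES and iPS cells and 22.7% and 38.6% in the MEF lines.

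The promoters themselves are rich in CG dinucleotides, the sequence class that Polycomb complexes are known to occupy. RefSeq sequences of 300 bases around the start (build GRCm38.p6) were matched for 45 of the 68 members. Their median was 20.5 CG per promoter against 7 over 27025 genes, and 88.9% of the members against 44.1% of all genes had at least 10. The promoters below are shown because they stand for the different mark patterns described further on: Dlx2, Lhx9, Nkx2-3, Pax6 and Pbx4, and En1 with a pair of probes that read very differently. Each runs 5′ to 3′ on the gene's strand, with 1 array probe that lies in it in capitals. The promoters of Dlx2 and Lhx9 hold a second probe, nearer the 5′ end, which is not in capitals.

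Dlx2 (chr2:71546705-71547004, minus strand, 29 CG): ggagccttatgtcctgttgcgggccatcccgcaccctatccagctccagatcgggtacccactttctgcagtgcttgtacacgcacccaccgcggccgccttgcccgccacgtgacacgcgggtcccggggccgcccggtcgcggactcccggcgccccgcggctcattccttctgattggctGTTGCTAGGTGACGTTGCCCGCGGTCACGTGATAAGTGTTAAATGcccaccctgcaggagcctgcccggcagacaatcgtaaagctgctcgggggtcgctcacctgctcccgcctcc
Lhx9 (chr1:138842395-138842694, minus strand, 6 CG): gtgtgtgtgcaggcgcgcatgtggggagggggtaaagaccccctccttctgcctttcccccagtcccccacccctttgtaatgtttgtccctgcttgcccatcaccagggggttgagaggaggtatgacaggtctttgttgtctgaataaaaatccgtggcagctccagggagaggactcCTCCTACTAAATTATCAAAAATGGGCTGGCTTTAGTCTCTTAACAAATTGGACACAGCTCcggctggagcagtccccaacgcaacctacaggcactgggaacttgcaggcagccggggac
Nkx2-3 (chr19:43612075-43612374, plus strand, 15 CG): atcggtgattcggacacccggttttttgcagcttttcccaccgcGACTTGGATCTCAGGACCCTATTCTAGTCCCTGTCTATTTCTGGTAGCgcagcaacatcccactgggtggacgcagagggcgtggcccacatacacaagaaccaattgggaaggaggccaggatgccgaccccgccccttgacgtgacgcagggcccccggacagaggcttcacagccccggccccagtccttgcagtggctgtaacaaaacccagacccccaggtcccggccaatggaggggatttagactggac
Pax6 (chr2:105668646-105668945, plus strand, 18 CG): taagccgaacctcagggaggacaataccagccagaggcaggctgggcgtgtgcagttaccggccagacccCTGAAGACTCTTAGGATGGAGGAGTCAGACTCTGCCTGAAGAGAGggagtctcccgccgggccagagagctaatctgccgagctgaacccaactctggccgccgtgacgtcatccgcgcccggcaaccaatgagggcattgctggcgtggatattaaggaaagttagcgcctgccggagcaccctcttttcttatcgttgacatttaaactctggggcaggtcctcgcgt
Pbx4 (chr8:69832374-69832673, plus strand, 19 CG): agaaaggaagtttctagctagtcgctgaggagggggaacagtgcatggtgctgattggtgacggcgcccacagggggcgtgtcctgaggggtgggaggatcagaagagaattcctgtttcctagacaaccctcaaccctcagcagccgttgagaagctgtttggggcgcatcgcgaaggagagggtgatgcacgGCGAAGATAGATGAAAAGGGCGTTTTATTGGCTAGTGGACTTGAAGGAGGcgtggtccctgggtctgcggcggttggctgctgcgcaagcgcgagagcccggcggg
En1, GC-rich probe (chr1:120602237-120602536, plus strand, 23 CG): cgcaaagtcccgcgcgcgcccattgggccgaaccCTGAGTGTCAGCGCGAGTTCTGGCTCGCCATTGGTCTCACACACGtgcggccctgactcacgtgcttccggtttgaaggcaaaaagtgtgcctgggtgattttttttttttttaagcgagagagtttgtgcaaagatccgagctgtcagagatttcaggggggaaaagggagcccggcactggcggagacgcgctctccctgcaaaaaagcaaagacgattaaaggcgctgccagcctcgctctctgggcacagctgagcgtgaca
En1, AT-rich probe (same promoter): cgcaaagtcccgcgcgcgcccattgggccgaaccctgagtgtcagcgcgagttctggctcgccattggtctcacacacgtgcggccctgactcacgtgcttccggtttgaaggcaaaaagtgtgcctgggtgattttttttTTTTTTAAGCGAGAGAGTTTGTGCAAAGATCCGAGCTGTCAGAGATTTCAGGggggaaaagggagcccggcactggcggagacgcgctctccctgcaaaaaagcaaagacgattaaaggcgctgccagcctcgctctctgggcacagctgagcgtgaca

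At the capital stretch of Dlx2, H3K27me3 read 0.64 in E14, 1.32 in V6.5, -0.03 in MEF1, -0.13 in MEF2 and 0.67 in iPS cells, and H3K4me3 read 1.04, 1.71, 2.04, 1.48 and 1.59. Its second probe read 0.05, 1.21, -0.10, 0.15 and 0.43 for H3K27me3 and 0.41, 1.56, 0.85, 0.63 and 0.24 for H3K4me3, lower for H3K4me3 in every line. The capital stretch of Lhx9 carried both marks in all 5 lines, with H3K4me3 at 1.59, 1.90, 2.38, 3.34 and 1.58 and H3K27me3 at 2.34, 3.69, 1.43, 1.89 and 2.74. Its second probe was lower throughout, with H3K4me3 between -0.06 and 0.71 and H3K27me3 between 0.52 and 2.28. The Pbx4 probe had H3K4me3 alone, between 1.32 and 1.91, with H3K27me3 between -0.24 and 0.40. The Pax6 probe had the opposite reading in MEFs, H3K27me3 of 2.20 and 2.60 with H3K4me3 of 0.11 and -0.07. At the Nkx2-3 probe H3K4me3 was -0.99 and 0.08 in MEF1 and MEF2 and 0.16 to 0.95 in the pluripotent lines, while H3K27me3 was 1.89 and 2.67 in the MEF lines and 0.62, 2.15 and 1.79 in E14, V6.5 and iPS cells.

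The En1 promoter holds probes of unlike base composition that read very differently. Its probe of 60% GC read -0.08 to 0.11 for H3K4me3 and -0.10 to 0.41 for H3K27me3 over the 5 lines, while its probe of 42.3% GC, within the same promoter, read 2.16 to 4.08 and 1.79 to 3.26. The pattern held over the members' probes within 1 kb of the start. Those of at most 45% GC averaged 1.48 to 2.44 for H3K27me3 across the lines and those over 55% GC 0.18 to 0.65, and for H3K4me3 the averages were 0.90 to 1.30 and 0.25 to 0.46. At the other promoters H3K4me3 also fell, from 1.03 to 1.24 down to 0.28 to 0.56, but H3K27me3 did not fall in every line. In the order E14, V6.5, MEF1, MEF2 and iPS it was 0.15, 0.14, -0.07, -0.07 and 0.21 at low GC. Over 55% GC it was 0.005, 0.14, 0.22, 0.24 and 0.01. Member probes had a median of 48.9% GC against 44% at the other promoters, and 29.4% against 20.5% of them were over 55% GC. The part of base composition in the dip at the start, and in the members' counts below, was not tested.

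Within 1 kb on either side of the start, the members were again high for H3K27me3. The median member lay at a percentile of 92.8 to 95.6 among all 15126 promoters for H3K27me3 in the 5 lines and of 37.0 to 42.1 for H3K4me3. In the order E14, V6.5, MEF1, MEF2 and iPS, 20, 44, 33, 44 and 35 of 63 members were marked with H3K27me3, against 2.68%, 12.7%, 6.68%, 11.1% and 8.79% of all promoters. For H3K4me3 the counts were 10, 22, 14, 16 and 19, where 47.0% to 54.9% of all promoters were marked. Both marks were present in both ES lines at 6 members, Dlx1, Lhx1, Lhx8, Lhx9, Meis1 and Nkx1-2, which is 9.52% of members against 0.813% of all promoters. The iPS line had both marks at 13 members (20.6% against 2.99%), and both MEF lines had them at 5, Lhx6, Lhx9, Meis1, Msx3 and Pax9 (7.94% against 0.615%).

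The number of members with both marks moved with the ES line and with the probes used. In V6.5 16 members had both marks and 28 had H3K27me3 alone, while in E14 these were 6 and 14. With probes of at most 45% GC, a setting added after the data were seen that leaves 47 members, 23 (48.9%) had both marks in both ES lines, against 7.13% of all promoters, and 32 (68.1%) had them in iPS cells, against 11.7%. With those probes H3K27me3 marked 41 of the 47 in both ES lines (87.2% against 12%), and H3K4me3 marked 57.4% of members against 57.5% of all promoters.

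**Figure D2:**
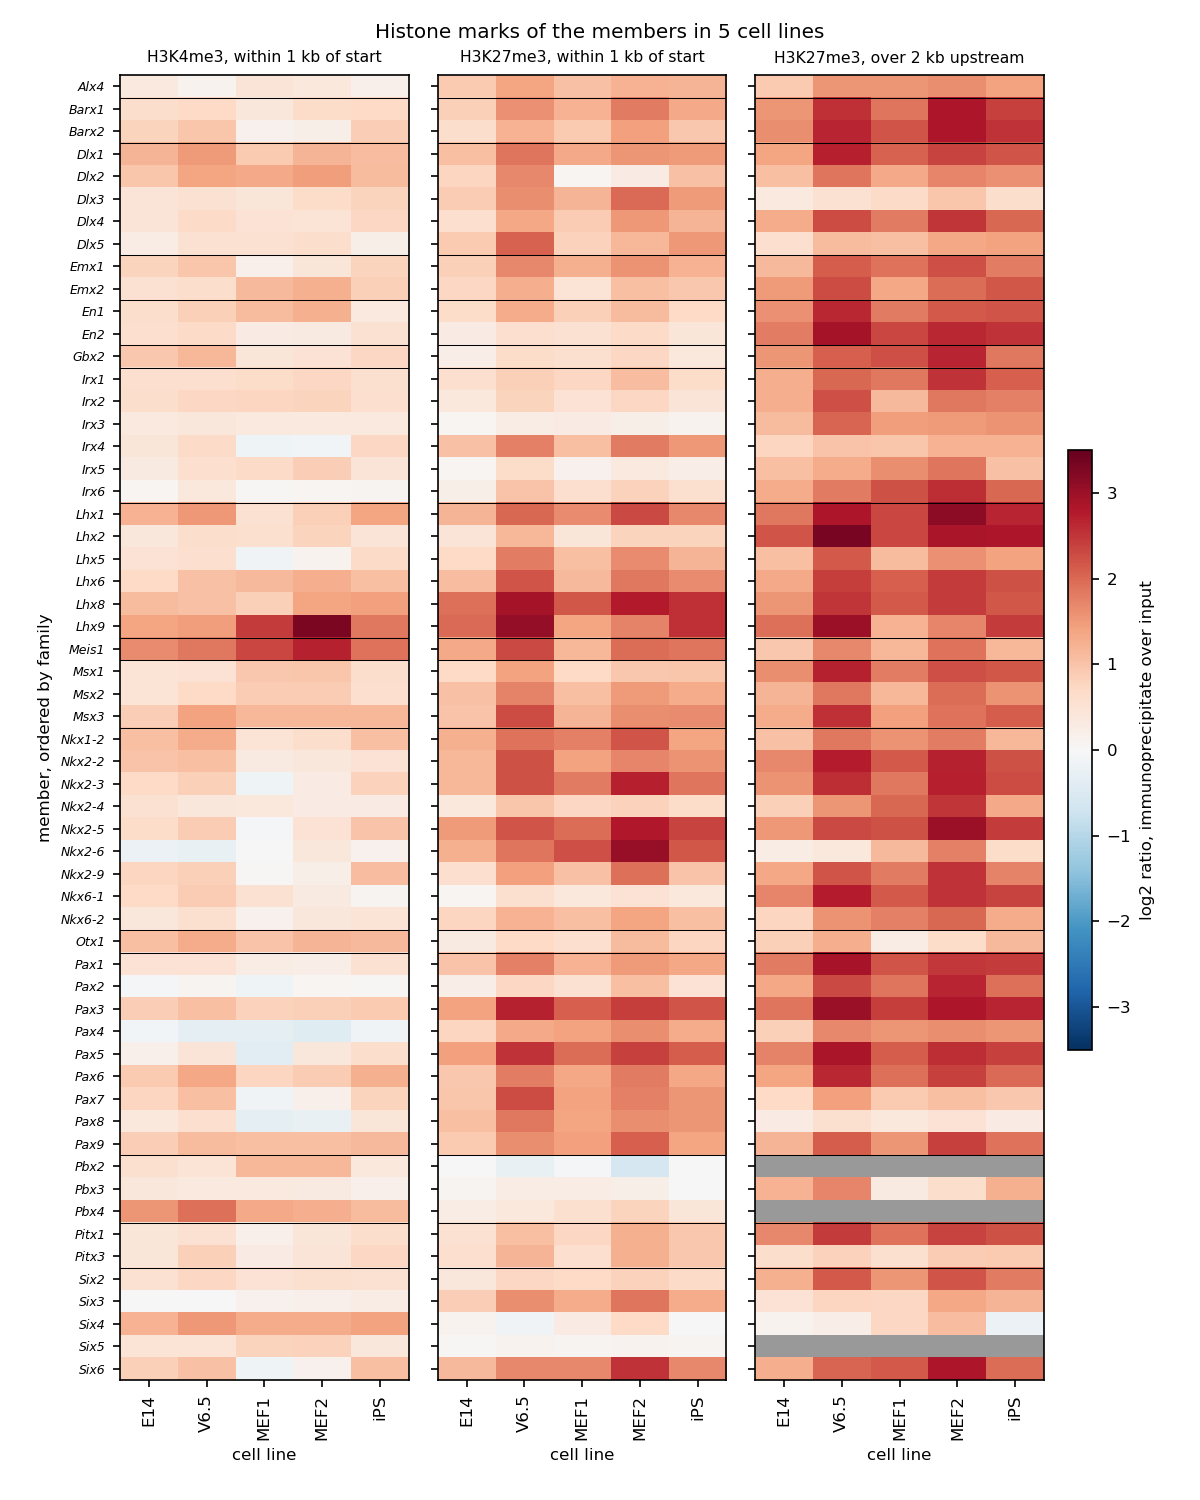
Log2 ratio of immunoprecipitate over input (colour, from blue at -3.5 to red at 3.5, grey where there are no probes) for 58 of the 63 members in rows, grouped by family, and the 5 lines in columns, for H3K4me3 and H3K27me3 within 1 kb of the start and for H3K27me3 more than 2 kb upstream. H3K27me3 is red in most families in all lines, with genes such as Pbx2 and Six4 pale near the start, and the upstream panel is redder than the window at the start for genes such as Lhx2, En2 and Gbx2.

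Families differed in how much H3K27me3 lay at the start. The LIM-homeobox (Lhx) genes, which pattern neurons and limbs, had a median over members of 1.62 in ES, 1.52 in MEF and 1.68 in iPS cells. The Pax genes, regulators of eye, kidney, muscle and spine, had 1.38, 1.58 and 1.37, and the Nkx genes, regulators of ventral nervous system and inner organs, 1.28, 1.66 and 1.33. Dlx genes, which act in jaw, limb and forebrain neurons, had 1.26, 1.20 and 1.49. Lower medians were found for the sine oculis genes, which act in sense organs and muscle (0.62, 0.62 and 0.66), the Irx genes (0.59, 0.65 and 0.52) and the Pbx genes (0.24, -0.01 and 0.14), the last of which encode widely expressed cofactors of other homeodomain proteins. By the mean of the ES lines the 4 highest members were Lhx9 (1.98 and 3.06), Lhx8 (1.92 and 2.91), Pax3 (1.41 and 2.70) and Pax5 (1.45 and 2.54). Irx genes pattern heart, limb and nervous system. More than 2 kb upstream, Irx1, Irx2, Irx3, Irx5 and Irx6 read higher than near the start in every line. Irx1 had 1.27 and 2.02 there in ES, 1.86 and 2.53 in MEF and 2.09 in iPS cells, and Irx6 1.31 and 1.82, 2.22 and 2.59, and 2.01. Irx4 read lower there in every line, with 0.75 and 0.99, 0.96 and 1.22, and 1.22 upstream beside 1.03 and 1.75, 1.06 and 1.83, and 1.51 near the start.

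At 3 members H3K4me3 was present without H3K27me3 within 1 kb in all 5 lines, Pbx4 and Six4 among them. Pbx4 had H3K4me3 of 1.54 and 1.94 in ES, 1.34 and 1.26 in MEF and 1.11 in iPS cells. Six4 had 1.22 and 1.51, 1.29 and 1.29, and 1.42. H3K27me3 at Pbx4 was 0.25 and 0.36, 0.57 and 0.79, and 0.43, so both MEF lines lay above the ES lines while staying below the threshold.

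Few members passed the test for a difference in H3K4me3 between MEFs and ES cells. Of 63, 2 were called (adjusted p under 0.05 by limma over all promoters), where 5.12% of all promoters were called, 2.04% higher and 3.09% lower. Lhx9, which acts in gonad and limb formation, had H3K4me3 of 1.38 and 1.47 in the ES lines, 2.46 and 3.28 in the MEF lines and 1.85 in iPS cells. Both MEF lines lay above all pluripotent lines, and the difference of 1.45 (SE 0.28) had an adjusted p of 0.0161. Lhx9 also had 83.3% of its tiled probes marked with H3K4me3 in each MEF line against 40.5% and 31.0% in the ES lines, and H3K27me3 was still present in MEFs at 1.38 and 1.73, below the ES values of 1.98 and 3.06. Without MEF2 the Lhx9 difference was 1.04 and was not called.

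Six6, a regulator of eye and pituitary, changed the other way. Its H3K4me3 was 0.82 and 1.02 in the ES lines, -0.15 and 0.16 in the MEF lines and 1.06 in iPS cells, so both MEF lines lay below the 3 pluripotent lines. The difference fell by 0.92 (SE 0.22, adjusted p = 0.0446 by limma), and it was not called without V6.5 (-0.82), without MEF1 (-0.76) or without MEF2 (-1.07). H3K27me3 at Six6 was 1.13 and 1.68 in ES, 1.67 and 2.52 in MEF and 1.69 in iPS cells, and every one of its tiled probes in MEF2 (100%) was marked.

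Without a test at each gene, the order of the lines can be described. Both MEF lines lay above both ES lines for H3K4me3 at 16 members, where 14.9% of all promoters did so, and below them at 25, where 25.6% of all promoters did. Of the 10 placed Nkx genes 9 lay in the lower group and Nkx2-6 in the higher, and Pax1, Pax3, Pax6, Pax7 and Pax8 were all in the lower. Some gaps were very narrow, as at Nkx6-2 with 0.405 in E14 and 0.402 in MEF2. Pax7, a regulator of muscle stem cells and neural crest, had 0.74 and 1.04 in ES, -0.13 and 0.17 in MEF and 0.79 in iPS lines. Pax8, needed for thyroid and kidney, had 0.37 and 0.59, -0.35 and -0.26, and 0.43. At both genes H3K27me3 stayed between 0.97 and 2.28 in every line, and the ES and MEF ranges overlapped.

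The higher group held Meis1, En1, Emx2, Msx1 and Pbx2. Meis1, a partner of Hox and Pbx proteins, had H3K4me3 of 1.65 and 1.84 in ES, 2.34 and 2.70 in MEF and 1.90 in iPS cells, together with H3K27me3 of 1.32 and 2.30, 1.17 and 1.95, and 1.87. Emx2, a regulator of forebrain, kidney and gonad, had H3K4me3 of 0.54 and 0.62, 1.14 and 1.26, and 0.82. Pbx2 had 0.57 and 0.47 in ES, 1.16 and 1.17 in MEF and 0.37 in iPS cells, with H3K27me3 at or below 0.01 in every line. None of these 5 genes passed the test. At no member were the ES and MEF lines apart by 1 log2 unit or more, where both MEF lines lay that far above at 1.11% of all promoters and below at 1.28% for H3K4me3, and at 0.582% and 1.2% for H3K27me3.

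No member was called for H3K27me3 between MEFs and ES cells by limma, where 12.3% of all promoters were called (4.62% higher and 7.66% lower), and 8 of 63 had an unadjusted p under 0.05. Both MEF lines lay above both ES lines at 5 members (Nkx2-6, Pax4, Pbx4 and Six4 among them), where 24.9% of all promoters did so, and below them at 4 (Dlx2 and Lhx9 among them), where 35.1% did. Dlx2, which acts with Dlx1 in jaw and forebrain, had H3K27me3 of 0.76 and 1.69 in the ES lines, 0.07 and 0.28 in the MEF lines and 1.02 in iPS cells, with H3K4me3 of 0.96 and 1.38, 1.32 and 1.46, and 1.12. The difference did not pass the test (-1.05, SE 0.32, adjusted p = 0.0942 by limma). More than 2 kb upstream Dlx2 had H3K27me3 of 1.32 and 1.70 in the MEF lines beside 1.07 and 1.87 in ES. Dlx1 had 1.06 and 1.88 in ES and 1.34 and 1.55 in MEF lines within 1 kb.

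The count for H3K27me3 moved with the scaling of the lines. With all lines scaled to a common spread, 23 members were called, all lower in MEFs, where 33.9% of all promoters were called and 23.9% called lower. Without E14, 5 were called, all lower in MEFs, where 11.7% of all promoters were called and 8.85% called lower. Under the common spread the called members included Lhx9 with a difference of -1.66, Dlx2 with -1.24 and Meis1 with -1.04. H3K4me3 under the same scaling gave 18 called, 4 higher and 14 lower, where 13.4% of all promoters were called and 9.76% called lower.

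**Figure D3:**
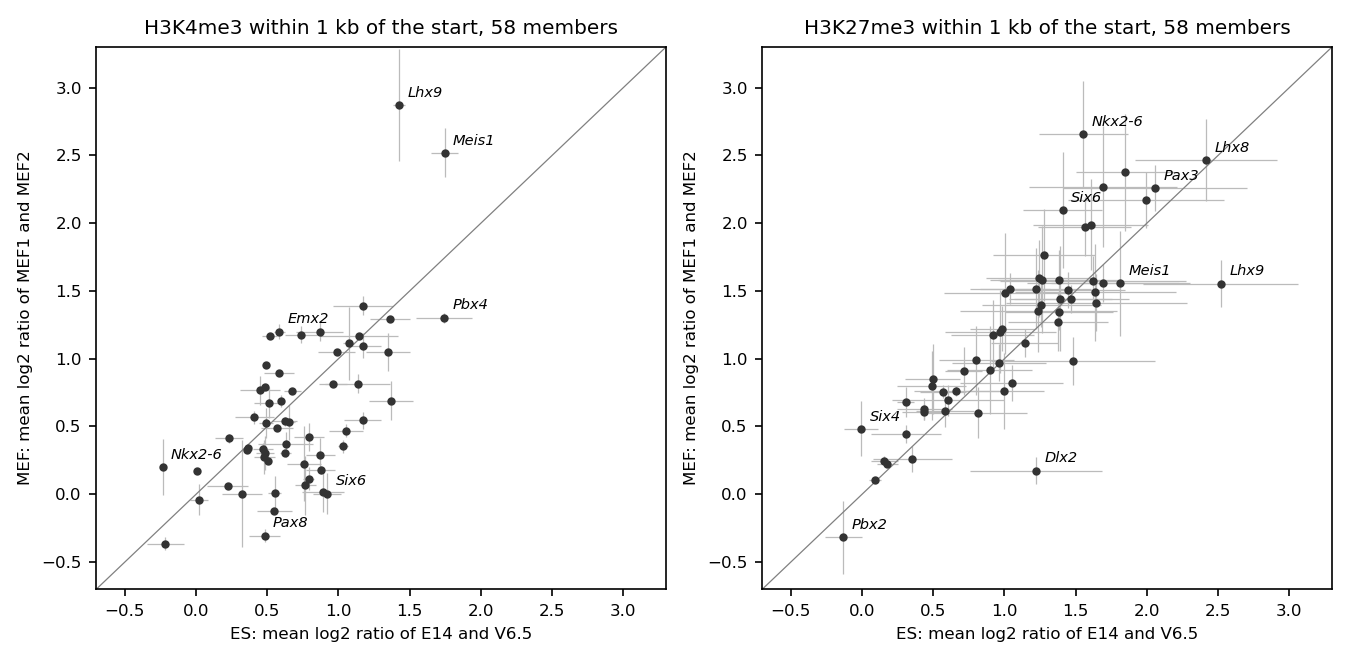
Mean log2 ratio within 1 kb of the start in the ES lines E14 and V6.5 (horizontal axis) against that in MEF1 and MEF2 (vertical axis) for 58 of the 63 members, H3K4me3 left and H3K27me3 right, with bars from the lower to the higher line and a line of equality. Lhx9 and Meis1 lie above the line for H3K4me3 and Six6 and Pax8 below it, and Dlx2 lies below it for H3K27me3 with the MEF lines at 0.07 and 0.28.

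The iPS line lay within or close to the range of the ES lines at the members. For H3K27me3 it fell between E14 and V6.5 at 55 of 63 members, where 48% of all promoters did, and the farthest outside was Nkx2-6, 0.30 above the higher ES line. That range is wide, with member medians of 0.76 in E14 and 1.41 in V6.5. For H3K4me3 it fell between them at 26, where 43.7% of all promoters did, and the farthest outside was Nkx6-1, a regulator of motor neurons and beta cells, with 0.69 and 0.90 in the ES lines and 0.10 in iPS cells. No member was called by limma between iPS and ES cells for either mark, where 0% of all promoters were called, and 2 had an unadjusted p under 0.05 for H3K4me3 and 0 for H3K27me3. No member was called by limma between iPS and MEF lines either, where 0.992% of all promoters were called for H3K4me3 and 0% for H3K27me3, with 14 and 0 at an unadjusted p under 0.05. These comparisons share the ES and MEF arrays with those above. In these tests the spread of the iPS value, which comes from 1 line, was taken from the other lines.

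RNA of the members differed widely between MEFs and ES cells. Of 48 members tested, 16 were higher in MEFs and 11 lower (adjusted p under 0.05 by limma and at least 2-fold), where 15.9% and 17.8% of all 17304 genes were called, 33.6% in all. The remaining 20 members had no probe well above background on both arrays of any group, and Pax3, Pax8 and Six6 among them were above background on the duplicate MEF array only. The number called was 18 and 19 without the first or the duplicate ES array and 35 and 34 without the first or the duplicate MEF array. RNA levels below are log2 signals relative to the 75th percentile of the array, given for the first and the duplicate array.

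Among the members higher in MEFs, Emx2 was not well above background in ES cells (-6.38 and -5.73) or iPS cells (-6.51 and -6.79) and reached 0.25 and 0.89 in MEFs, at least 29.8-fold higher (adjusted p = 0.000662 by limma). Pitx1, which specifies the hindlimb, was -3.44 and -3.12 in ES, 0.88 and 0.19 in MEFs and -3.19 and -3.25 in iPS cells, 14.1-fold higher in MEFs than in ES cells. Irx1 was -1.51 and -1.35, 3.05 and 1.92, and -1.78 and -2.14, a 15.1-fold difference. In all 3 genes the MEF arrays lay above the other 4 arrays without overlap.

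Meis1 and Pbx3, which encode partners of other homeodomain proteins, were both higher in MEFs. Meis1 was -3.33 and -4.27 in ES, -0.13 and 0.10 in MEFs and -5.23 and -5.60 in iPS cells, 13.8-fold higher in MEFs than in ES cells, and its other probe gave -4.63 and -3.15, 1.28 and 1.27, and -6.89 and -6.89. Pbx3 was 3.25-fold higher, with -1.29 and -1.16 in ES, 1.11 and -0.16 in MEFs and -0.31 and -0.08 in iPS cells. Both iPS arrays lay above the ES arrays, and the duplicate iPS array also lay above the duplicate MEF array. Pbx4, known for its role in the testis, fell, with -0.00 and 0.26 in ES cells, -3.09 and -2.31 in MEFs and -0.93 and -0.71 in iPS cells, but its second probe (-1.95 and -1.93 in ES, -4.27 and 0.59 in MEFs) overlapped, and the call was lost with the mean over probes.

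Lhx8, a factor of cholinergic neurons, tooth and oocyte, had -6.90 and -5.58 in ES, -1.18 and -1.06 in MEFs and -5.30 and -5.46 in iPS cells, a rise of at least 9.20-fold in MEFs. Dlx1 was at least 6.36-fold higher (-6.55 and -5.93 against -2.69 and -0.62), a call lost without the first ES array. En1, which acts in midbrain and in the skin and limb, was at least 4.26-fold higher (-6.25 and -5.92 against -2.90 and -1.56). Also in this direction were Six5 (12.8-fold), Nkx2-3 (12.7-fold), Irx5 (at least 7.64-fold), Pax9 (at least 6.73-fold), Emx1 (4.64-fold) and Dlx2 (at least 2.86-fold).

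Among the members lower in MEFs, Otx2, a head organiser gene and a factor of the primed pluripotent state, was 0.99 and 0.71 in ES cells, -5.13 and -6.12 in MEFs, not above background there, and 1.78 and 1.41 in iPS cells, at least 23.3-fold lower in MEFs than in ES cells (adjusted p = 0.000682 by limma). The start of Otx2 could not be placed, and over all its promoter probes H3K27me3 averaged 1.45 and 2.32 in ES, 2.10 and 2.93 in MEF and 1.97 in iPS cells, with H3K4me3 at 0.88 and 1.08, -0.34 and 0.28, and 1.29. Nkx6-2, which acts in myelin-forming cells, was 0.94 and 1.61, -5.20 and -3.40, and -0.07 and -0.35, 47.7-fold lower. Its probe was well above background on 1 of the MEF arrays, and the log2 difference was -4.67 without the first and -6.48 without the duplicate MEF array. Pax6, the eye and forebrain regulator, was -0.65 and -0.53, -5.63 and -6.38, and -2.31 and -2.81, at least 8.59-fold lower. All ES and iPS arrays lay above both MEF arrays for these genes, but a second Pax6 probe did not separate them (-2.76 and -2.98 in ES, -5.40 and -1.76 in MEFs).

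Nkx2-9 was at least 4.57-fold lower, with -1.67 and -1.33 in ES, -5.51 and -6.26 in MEFs and -1.37 and -2.07 in iPS cells. Gbx2, a hindbrain regulator that is also active in pluripotent cells, was 1.38 and 0.91 in ES and -5.14 and -0.66 in MEFs, 16.5-fold lower. Its MEF arrays were far apart, with a difference of -1.81 without the first MEF array and -6.28 without the duplicate, and the call was lost without either ES array. Also called lower were Pbx4, En2 (5.51-fold, a call lost without either ES array), Lhx5 (at least 1.78-fold), Lhx6 and Msx2. The probes of Gbx2, Pbx4, En2, Lhx6 and Msx2 were also above background on only 1 of the MEF arrays. A second Lhx6 probe, above background on the duplicate MEF array only, went the other way (-6.88 and -6.28 in ES, -5.56 and -2.16 in MEFs). Leaving out a single MEF array moved 8 of the 31 RNA differences named by rule by over 1.5-fold: Dlx1, En1, Nkx6-2 and Gbx2 against ES cells, and Nkx6-2, Lhx2, Irx5 and En1 against iPS cells. The MEF minus ES difference was 5.62 and 3.55 for Dlx1 and 4.52 and 3.18 for En1 without the first and the duplicate array. The ES arrays, which enter only the differences against ES cells, moved 1, Lhx8 (4.46 and 5.78). The iPS arrays, which enter only those against iPS cells, moved 0.

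**Figure D4:**
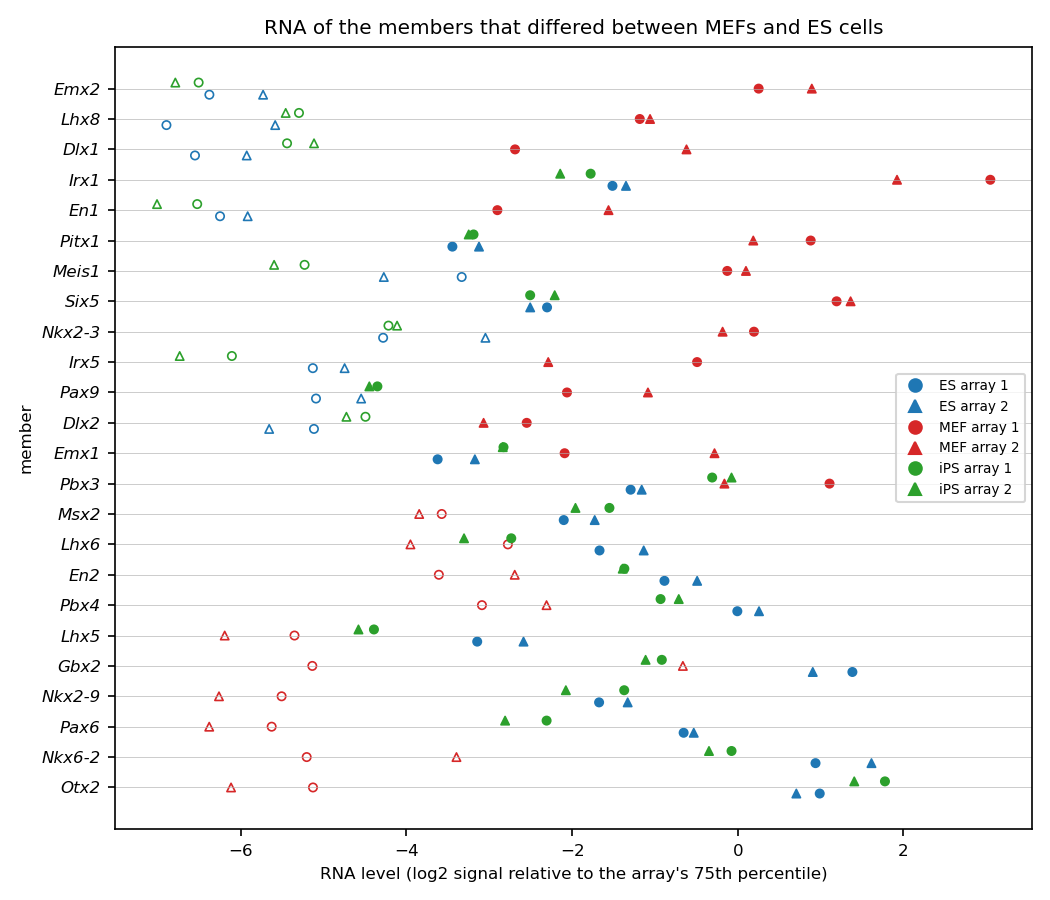
RNA level (horizontal axis, log2 signal relative to the array's 75th percentile) of 24 of the 27 members called between MEFs and ES cells, 1 row a gene ordered by the difference, with circles for the first and triangles for the duplicate array of ES cells, MEFs and iPS cells, filled where the probe was well above background on both arrays of the group. MEF points lie right of the ES points from Emx2 to Pbx3 and left of them from Msx2 to Otx2, and for Gbx2, Lhx5, Lhx6 and Pbx3 the iPS points are not both nearer to ES.

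Against MEFs, iPS cells showed 10 members higher and 16 lower of 48, where 18.2% and 17% of all genes were called, 35.3% in all. This comparison uses the same MEF arrays as the one above. For Otx2 the iPS level exceeded that of MEFs at least 39.0-fold (adjusted p = 0.000375 by limma), and for Nkx6-2 the log2 difference was 4.09 (adjusted p = 0.00407), and 3.18 and 4.99 without the first and the duplicate MEF array. Also higher were Nkx2-9 (at least 3.92-fold), Barx2 (3.89-fold), Msx2 (3.88-fold), Pax6 (at least 2.20-fold), Lhx2 (at least 2.19-fold) and Nkx2-2 (at least 2.17-fold). Emx2 was at least 42.9-fold lower, Meis1 at least 28.5-fold, Irx1 21.8-fold, Nkx2-3 18.0-fold, Pitx1 13.5-fold, Lhx8 at least 13.2-fold, Irx5 at least 11.0-fold and En1 at least 6.14-fold. Without the first and the duplicate MEF array the differences were -4.13 and -5.93 for Irx5, -5.21 and -3.87 for En1 and 1.44 and 2.62 for Lhx2. Without the first or the duplicate iPS array 17 members were called each time, and without the first or the duplicate MEF array 36 and 32. The calls of Barx2, Lhx2, Msx2 and Nkx2-2 were each lost without either iPS array, and those of Barx2 and Lhx2 also without either ES array or the first MEF array. Other Barx2 probes, above background at most on the duplicate MEF array, lay lower in iPS cells than in MEFs. They read -6.73 and -6.06 against -5.16 and -2.55, and -6.96 and -7.25 against -5.40 and -4.76.

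Both iPS arrays were nearer to the ES mean than to the MEF mean for 23 of the 27 members called between MEFs and ES cells (85.2%, against 86.3% of all genes called there). The exceptions were Gbx2, Lhx5, Lhx6 and Pbx3. Lhx5, a forebrain patterning gene, was -3.15 and -2.59 in ES, -5.35 and -6.19 in MEFs and -4.39 and -4.58 in iPS cells. Lhx6, a factor of cortical interneurons, was -1.67 and -1.14, -2.78 and -3.95, and -2.73 and -3.30. For both genes the iPS arrays lay below both ES arrays.

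Between iPS and ES cells no member was called by limma with all 6 arrays in the fit, where 0.248% of all genes were called (0.15% higher and 0.0982% lower), and 9 of 48 had an unadjusted p under 0.05. Fitted without the MEF arrays, whose pair agreed least, 15 were called, of which 4 had more RNA and 11 less in iPS cells, where 16.6% of all genes were called, 8.21% higher and 8.44% lower. Leaving out either MEF array repeats this fit by construction, since a single MEF array adds no estimate of spread. Nkx6-3, a stomach regulator, was -1.40 and -0.44 in ES and -4.89 and -4.60 in iPS cells, with -4.98 and -0.22 in MEFs. Gbx2, Pax6, Lhx1, Lhx5, Lhx6, Nkx6-2 and Pbx2 were also among those lower, and Msx1, Nkx2-2 and Pbx3 among those higher. Irx5 and Meis1 are counted among the lower but were tested only because of their MEF signal: Irx5 was above background on none of the ES and iPS arrays and Meis1 on 1 ES array, so their differences are between background readings or nearly so. Msx1, an effector of BMP signalling, was -2.10 and -1.89 in ES and -0.57 and -0.60 in iPS cells, and a second probe also lay higher in iPS cells (-2.78 and -3.92 against -6.14 and -5.55). The summed fibroblast markers were also higher on the feeder-dependent ES arrays (63.3 and 80.4) than on the iPS arrays (21.0 and 18.5), and their part in these differences was not tested.

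The RNA calls can be set beside the marks. Of the 16 placed members with higher RNA in MEFs, 10 had a higher mean H3K4me3 in MEFs and 10 a higher mean H3K27me3, that is 62.5% for each, with median differences of 0.08 and 0.03. Over all 1802 placed genes with higher RNA in MEFs the shares were 72.8% and 24.1% and the medians 0.22 and -0.30. Of the 10 placed members with lower RNA, 8 had lower H3K4me3 and 8 higher H3K27me3, 80% for each, with medians of -0.32 and 0.18. Over all 2027 such genes the shares were 69.5% and 58.2% and the medians -0.10 and 0.05. Nkx2-3, a regulator of gut and spleen, had higher RNA in MEFs without a higher H3K4me3. Its RNA was -4.28 and -3.05 in ES, 0.20 and -0.18 in MEFs and -4.22 and -4.11 in iPS cells, while H3K27me3 was 1.82 and 2.72 in the MEF lines and H3K4me3 -0.15 and 0.29. At Emx2 and Meis1, RNA was higher in MEFs and both MEF lines lay above both ES lines for H3K4me3, while H3K27me3 ranges overlapped.

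Detection of RNA can also be counted by mark state. Among members with both marks in V6.5, 3 of 16 had RNA well above background on both ES arrays, against 15 of 28 with H3K27me3 alone, 4 of 6 with H3K4me3 alone and 9 of 13 with neither. In MEF2 the counts were 6 of 10 with both marks, 7 of 34 with H3K27me3 alone, 4 of 6 with H3K4me3 alone and 6 of 13 with neither. In iPS cells they were 5 of 13, 10 of 22, 5 of 6 and 17 of 22. These shares rest on few genes and the difference between lines was not tested. The same shares over all genes were not counted, so the counts do not show a trait particular to the members.

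A list of other homeobox genes, which includes the ES markers Nanog and Pou5f1, and a list of cofactors give the surroundings of the members. Among 34 other homeobox genes tested, 7 were higher and 6 lower in MEFs than in ES cells, where 15.9% and 17.8% of all genes were, and 5 and 8 were higher and lower in iPS cells than in MEFs, where 18.2% and 17% of all genes were. The mesenchymal factor Prrx1 rose from 0.68 and 1.25 in ES to 5.69 and 5.04 in MEFs, with -1.26 and -1.25 in iPS cells. Among 23 cofactors and partners of the members, 8 were higher and 4 lower in MEFs, and 7 and 9 in iPS cells against MEFs, beside the same shares of all genes. The corepressor Tle4 was 4.49 and 4.55 in ES, -0.32 and -1.59 in MEFs and 4.24 and 4.26 in iPS cells, and its relative Tle2 was -1.71 and -1.05, 3.27 and 2.71, and -2.21 and -2.32, so these Groucho-family genes were called in opposite directions. In neither list was a gene called between iPS and ES cells with all arrays in the fit, and 3 of 34 and 6 of 23 were called in the fit of those groups alone, where 16.6% of all genes were called.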

How the data were processed

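H3K4me3 and H3K27me3 were measured on Agilent 2-colour promoter arrays and RNA on 1-colour expression arrays. The deposited intensity values came, per the file headers, from Feature Extraction 9.1.3.1 (promoter) and 9.5.1.1 (expression). The authors' deposited value tables hold log10 ratios for the promoter arrays, used as an alternative. For the promoter arrays a genome build was not given. Per the labels, immunoprecipitated DNA (Cy5) and input (Cy3) were amplified before labelling, and the effect of that step on single probes was not tested.

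From the processed intensities, log2 ratios of Cy5 over Cy3 were centred on each array's median and averaged over at least 3 probes within 1000 bp of the start. A line is 1 replicate, and a log2 ratio of at least 1 counts as marked. RNA signals were log2 intensities minus each array's 75th percentile. Probes had to be well above background on both duplicates in at least 1 group, and the brightest on average stands for its gene. Files and value table agreed at all spots (tolerance 1e-04) but with ES and MEF exchanged. The scanner file of the duplicate iPS array holds 28349 of 45018 spots and equals no column of the value table, so background limits of iPS cells come from the other array. A probe not above background on either array of a group gives a bound, "at least N-fold", from the lowest signal above background.

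All groups entered 1 limma fit (limma 3.58.1, R 4.3.3) per assay, with Benjamini-Hochberg adjustment over all 15126 promoters or 17304 genes. Calls need an adjusted p under 0.05, and for RNA also a 2-fold difference. The pipeline was tested on simulated data. Array number limits the precision. Genes were named by rule: the up to 8 called members with the largest difference in each direction of each RNA comparison, in each family the member with the highest MEF RNA, ES RNA and ES H3K27me3, and members with H3K4me3 and no H3K27me3 in all lines. No member had ES and MEF lines apart by 1 log2 unit, or an iPS value outside the ES range by 1, which would also have named it. Other members named were chosen after their values were seen. Members and lists were chosen with earlier results of these data known. The values of 5 members are not reported here.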

Additional observations from a re-analysis of the deposited data

How the results depend on the processing

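Over 33 named differences of RNA and marks and all settings except the scanner files as filed, 352 of 394 checks kept direction and side of the threshold, 42 lost the call and 0 changed sign. In some settings the difference cannot change by construction, so its sign was not at stake. These include fits of the compared groups alone and fits without an array of the group not compared. Members called for RNA between MEFs and ES cells numbered 18 to 35 with 1 array left out and 22 with the files as filed; between iPS cells and MEFs 17 to 36 and 0; between iPS and ES cells 0 to 15 and 16, and 15 in the fit of those groups alone. With the files as filed the MEF minus ES differences became -6.63 for Emx2, -5.12 for Lhx8, -4.59 for Dlx1, -3.92 for Irx1, -3.85 for En1, -3.82 for Pitx1, -5.16 for Meis1, 6.47 for Otx2, 5.58 for Nkx6-2, 5.41 for Pax6, 4.38 for Nkx2-9, 4.04 for Gbx2, 2.91 for Lhx5, 2.82 for Pbx4 and 2.46 for En2, and the iPS minus MEF differences -1.35 for Nkx6-2, -1.72 for Pax6, 0.94 for Lhx8 and 0.095 for Pitx1. The highest count between iPS and ES cells came from leaving out a MEF array, which repeats the fit of ES and iPS cells alone. The array number (first or duplicate) as a replicate block left 27, 26 and 0 members called and changed no named call. Deviations of arrays with the same number correlated at -0.005, -0.128 and 0.103, so the numbers do not pair them.

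For marks, members called for H3K4me3 between MEFs and ES cells were 18 with a common spread, 18 with normexp and 0 to 3 with a line left out; between iPS and MEF lines 15, 3 and 0 to 2, and 2 in the fit of those groups alone. For H3K27me3 between MEFs and ES cells they were 5 over all probes, 23 with a common spread, 1 with normexp and 0 to 5 with a line left out, and 12 between iPS and MEF lines with a common spread. Members apart by 1 log2 unit were 1 for H3K4me3 with normexp and 1 for H3K27me3 with a common spread.

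Counts of marked members moved with the threshold and probes. Both marks in both ES lines held at 28 members at a threshold of 0.5, 0 at 1.5, 0 over all probes, 2 with normexp, 0 by rank among all promoters, 23 at low-GC probes and 6 to 16 with a line left out. In iPS cells the counts were 38, 2, 4, 4, 0 and 32, and 7 with 500 bp. In both MEF lines they were 19, 0, 3, 3, 2, 15 and 5 to 10, with 3 at 500 bp and 2 with a common spread. H3K27me3 in both ES lines held at 44, 2, 42, 7, 36, 41 and 20 to 44, with 11 at 500 bp and 36 with a common spread. H3K4me3 in both ES lines held at 38, 2, 1, 3, 0, 27 and 10 to 22. H3K27me3 in both MEF lines was at 50 and 9 members by threshold, 21 at 500 bp and 33 to 44 with a line left out. H3K4me3 in both MEF lines was at 29 and 3 by threshold, 8 at 500 bp, 6 over all probes, 9 with a common spread, 7 with normexp, 2 by rank among all promoters and 14 to 16 with a line left out. The rank and low-GC settings were added after the data were seen. The cause of these shifts was not tested.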
